A study of Pan troglodytes with 38 samples.

Results

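The genes described here are 8 transcripts of circulating neutrophils and monocytes, S100A8 (ENSPTRG00000001347), S100A9 (ENSPTRG00000001345), S100A12 (ENSPTRG00000001346), CSF3R (ENSPTRG00000000542), FPR1 (ENSPTRG00000011395), CXCR2 (ENSPTRG00000050817), IL1R2 (ENSPTRG00000012297) and FCN1 (ENSPTRG00000021531). They were chosen by symbol, as the rows of the chimpanzee gene count table whose Ensembl identifier carries one of these names, and all 8 were found among the 31373 annotated genes. The libraries are polyA RNA-seq of post-mortem heart from 38 chimpanzees (Pan troglodytes), 1 library an animal, in what the labels give as a single group. Per the study's sample table, 22 animals were female and 16 male, RNA of 21 animals was extracted on a single late date (late RNA) and that of 17 on 4 dates of an earlier year (early RNA), and 8 animals carry a note of infection with or exposure to a virus. All 8 belong to late RNA, so late against early RNA also differs in virus status. The sample table marks every library of early RNA as a published one sequenced again, where the methods text counts fewer, so that time of extraction and origin of the library cannot be told apart. Age was recorded for 34 animals and was 10 to 57 years, with a median of 27 in late RNA (17 animals) and 36 in early RNA (17 animals). The human samples of the study were not used here, and no comparison between species was made.

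Neutrophils are short-lived white cells that leave the blood for injured or infected tissue, and classical monocytes follow them and can become macrophages. S100A8 and S100A9 pair to form calprotectin, a calcium- and zinc-binding protein that fills the neutrophil cytosol and is also made by monocytes, and S100A12 is a related calgranulin. Of the receptors, CSF3R binds the granulocyte growth factor G-CSF, FPR1 senses formylated bacterial peptides, CXCR2 senses the chemokines that recruit neutrophils, and IL1R2 is a decoy that captures interleukin-1. FCN1 encodes ficolin-1, a lectin made chiefly by monocytes that starts the lectin pathway of complement. The tissue was not sorted, so in these bulk libraries fewer cells of a type and less RNA per cell cannot be told apart.

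Reads on exons orthologous between chimpanzee and human totaled 14408012 to 81603350 per library (median 41226039.5), and these totals were used to express each gene as counts per 1000000 of these reads (CPM). At 1 CPM in the shallowest library, counting error alone was 26.3% of the value. The 13 mitochondrial protein-coding genes took 17.2% to 60.1% of the gene counts, and RNA integrity numbers (RIN) ran from 2.5 to 8.4. Of the heart's own genes, 12 cardiomyocyte markers led by MYH7 and TNNT2 had a summed level of 11996 CPM at its lowest (animal Little_R), 98389 CPM at the median and 130845 CPM at its highest. Libraries 537 and Little_R stood apart from the rest, and the counts below were repeated without them.

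S100A8 was measured at 0.686 CPM in its lowest animal (4X0267), 14.6 CPM at the median and 288 CPM in its highest (338), a 420-fold range. S100A9 ran from 1.85 CPM in 4X0267 through a median of 17.7 CPM to 377 CPM in 338, a 204-fold range. Animal 338 stood well above the next highest, which had 148 CPM of S100A8 (529) and 102 CPM of S100A9 (4X0212), and it held 22.4% of all S100A8 CPM summed over the 38 animals. S100A12 was lower, with no count in 2 animals (4X0267 and 95A014), a median of 0.577 CPM, and its highest levels, 12.9, 12.3 and 10.8 CPM, in 4X0212, 338 and 529. Those 3 were the only animals with at least 6 CPM of S100A12.

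The calgranulins could be compared per length of sequence on their orthologous exons, which lie close together on chromosome 1 of the chimpanzee build Pan_tro_3.0. S100A8 spans chr1:131455433-131456589 on the minus strand (2 exons, 1006 exonic bases), S100A9 chr1:131423378-131426548 on the plus strand (3 exons, 577 bases) and S100A12 chr1:131439185-131441127 on the minus strand (3 exons, 518 bases). RPKM, the CPM per kilobase of exon, had a median of 31.02 for S100A9, 14.9 for S100A8 and 1.11 for S100A12, and S100A9 was above S100A8 in 37 of 38 animals. By counts on the same exons, without division by length, S100A9 was above S100A8 in 28 of 38 (median ratio 1.25). The order per length thus rests on the lengths used, 1006 and 577 bases, which were not checked against the transcripts. CSF3R, at chr1:35814009-35831294 on the minus strand (15 exons, 8425 bases), had a median of 0.544 RPKM. S100A12 and CSF3R were not separated by animal, since S100A12 was the higher in 26 of 38. Orthologous exons of the other 4 genes were not identified here, and their levels are given in CPM only.

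Among the receptors, CSF3R was measured at 0.804 CPM in its lowest animal (503), 3.89 CPM at the median and 52.2 CPM in its highest (4x0519), followed by 37.2 CPM in 529. FPR1 ran from 0.430 CPM (503) through 2.16 CPM to 20.02 CPM in 338 and 19.4 CPM in 4x0519. Both receptors were counted in every animal. IL1R2 had no count in 3 animals, a median of 0.248 CPM and a highest level of 17.4 CPM in 338, which alone held 34.9% of the summed IL1R2 level, and the next animal (570) had 5.57 CPM. CXCR2 had no count in 6 animals and fewer than 3 counts in 8, a median of 0.169 CPM, and its highest levels in 4x0519 (5.13 CPM) and 549 (2.18 CPM). CXCR2 shares much of its sequence with CXCR1, as FPR1 does with FPR2, and reads that fit either copy could not be checked. FCN1 was low in all animals, from 0.0694 CPM in Little_R through a median of 0.326 CPM to 3.27 CPM in 4X0212. A library with no count of a gene allows up to 3 counts, which is 0.062 to 0.208 CPM in the libraries concerned and covers counting error only.

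**Figure D1:**
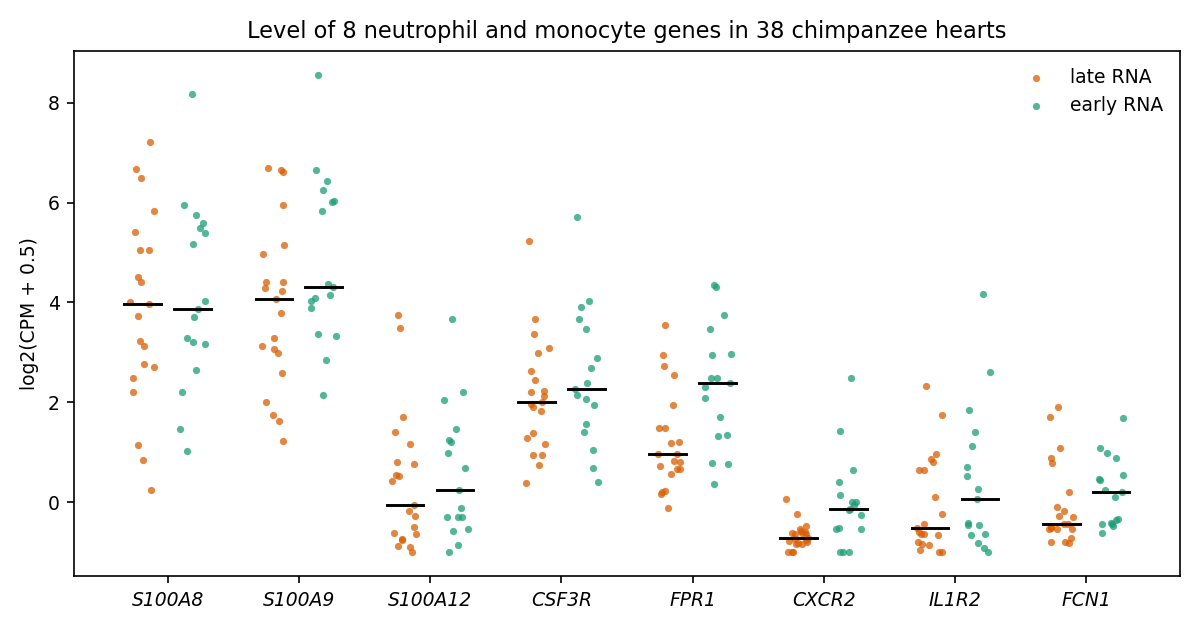
Level of each of the 8 genes in each of 38 hearts, as log2(CPM + 0.5), with late and early RNA side by side and the median as a bar. S100A8 and S100A9 span the widest range, with animal 338 at 288 and 377 CPM, while CXCR2, IL1R2, FCN1 and S100A12 have medians below 1 CPM, and late and early RNA overlap for every gene.

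The same few hearts held many of the highest levels. Animal 4X0212 was among the 5 highest for 7 of the 8 genes, 338 for 6, and 529, 4x0519 and 4x0430 for 5 each. At the other end, 4X0267 and 503 were among the 5 lowest for 6 genes, and 317 and 95A014 for 5. None of these 5 was among the 5 highest for every gene, and 529 had 0.153 CPM of CXCR2, below its median of 0.169 CPM.

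Markers of other blood and tissue cells also varied between these hearts, and their part in the levels above was not tested. The summed level of 12 tissue macrophage genes, led by STAB1 and C1QA, was 58.8 to 1264 CPM (median 254), highest in 4x0430, with 1013 CPM in 338. The erythrocyte genes, led by HBB, summed to 1.1 to 7160 CPM (median 178), highest in 529, and were at 57.0 CPM in 338, 6.2 CPM in 4x0430, 973 CPM in 4X0212 and 1584 CPM in 4x0519. Of these hearts, 338 and 4x0430 lay below the median erythrocyte level, and 529, 4X0212 and 4x0519 lay above it. Across the 8 members, the median Spearman correlation with the 3 erythrocyte genes tested was 0.08 to 0.53 in late RNA. In early RNA it was -0.25 to 0.44. T and NK cell genes summed to 5.9 to 450 CPM and B and plasma cell genes to 3.6 to 913 CPM. Genes of neutrophil granules, which are transcribed in the bone marrow before the cell matures, were low at the median. MPO had a median of 0.99 CPM, LTF 6.22 CPM, CHI3L1 2.78 CPM and MMP9 1.997 CPM. Single hearts were much higher, with up to 224 CPM of CHI3L1 and 62.4 CPM of LTF. The 17 granule genes summed to 7.4 to 297 CPM (median 15.4), highest in 570. BPI had no count in 20 animals and CEACAM8 none in 21.

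Levels were compared between late and early RNA with edgeR's quasi-likelihood test and sex as a covariate, the only technical batches that each held enough animals. Of 15392 genes tested, 4.68% were lower and 11.1% higher in late RNA at a Benjamini-Hochberg adjusted p under 0.05, and the median log2 fold change of all genes was -0.01. CXCR2 did not pass the filter on low counts, and of the other 7 genes only FPR1 passed the threshold. FPR1 was at 0.430 to 11.2 CPM in late RNA (median 1.44) and 0.794 to 20.02 CPM in early RNA (median 4.75), with overlapping ranges and a log2 fold change of -1.37 (SE 0.41, adjusted p = 0.0194). Its adjusted p was 0.0533 with RIN as a covariate, 0.0509 without 4x0519 and 0.273 among the 21 animals of the Yerkes center, where the log2 fold change was -1.24, so that the call did not hold under those settings.

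The other tested genes did not pass. The log2 fold change was -0.30 for S100A8 (SE 0.59, adjusted p = 0.768), -0.9995 for S100A9 (SE 0.52, adjusted p = 0.189) and 0.09 for S100A12 (SE 0.71, adjusted p = 0.947) in edgeR. It was -0.59 for CSF3R (SE 0.44, adjusted p = 0.375), -1.31 for IL1R2 (SE 0.72, adjusted p = 0.216) and -0.28 for FCN1 (SE 0.45, adjusted p = 0.710) by the same test. Several of these rested on single hearts. S100A9 was at -0.47 and IL1R2 at -0.50 without 338, and CSF3R was at -0.15 without 4x0519 and -1.04 without 529. FCN1 was at -1.12 without the 8 animals with a virus note (edgeR, adjusted p = 0.0946). With no filter on low counts CXCR2 entered the test, with a median of 0.106 CPM in late RNA (0 to 0.552) and 0.411 CPM in early RNA (0 to 5.13), and its log2 fold change was -2.23 (SE 0.56, adjusted p = 0.00561).

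**Figure D2:**
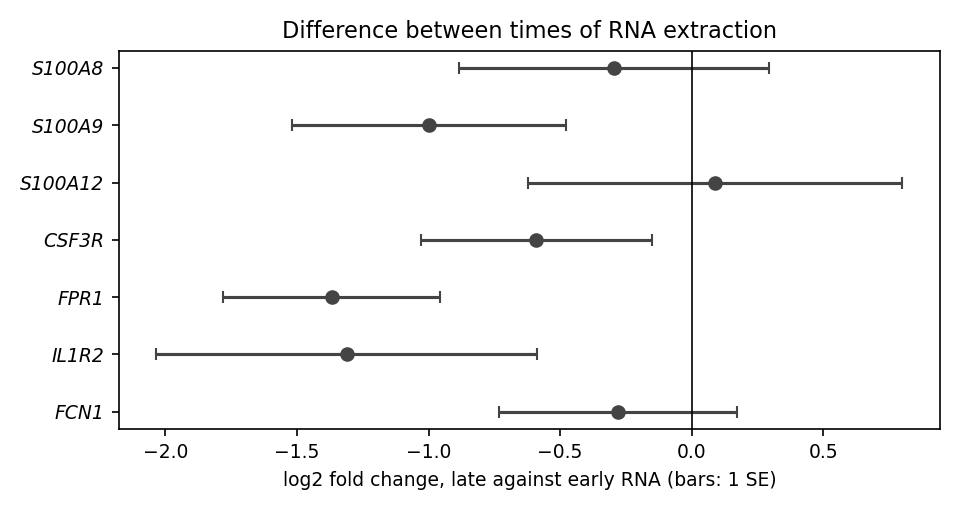
log2 fold change of late against early RNA for the 7 genes tested, from edgeR with sex as a covariate, with bars of 1 SE. FPR1, at -1.37, is the gene past the threshold, while S100A8 (-0.30), S100A12 (0.09) and FCN1 (-0.28) have bars that include 0.

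Of the lists drawn up around these genes, tissue macrophage markers fell in late RNA in 8 of 12 genes (median log2 fold change -1.47), with C1QC at -1.59, FOLR2 at -1.76, MRC1 at -1.46 and C1QB at -1.69. Of the 4 platelet genes tested, 3 rose (GP6 at 2.77, ITGA2B at 1.19, TUBB1 at 0.75). Of 3 erythrocyte genes tested, the red cell membrane gene EPB42 rose (1.57) and 2 did not pass. The atrial myosin light chain MYL7 was the 1 of 12 cardiomyocyte genes that passed, at -2.02. The part of these markers in the FPR1 difference was not tested. Neutrophil surface genes were lower in 2 of 15 (among them PTAFR at -1.69), classical monocyte genes in 3 of 12 (CD14 at -0.99, LYZ at -1.92, CSF1R at -1.39), and granule genes in 0 of 8, none of them at an unadjusted p under 0.05 either. Among 15 ligands and partners of the members, the CXCR2 ligands CXCL2 (1.84) and CXCL3 (2.55) and the S100 receptor AGER (2.35) rose, as did MASP2 (0.93), while MASP1, a protease of the same lectin pathway as ficolin-1, fell by 0.71 on the log2 scale.

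RNA integrity was examined in the same way. No gene of 15392 passed in edgeR for RIN (0.0%), although 2171 had an unadjusted p under 0.05 and DESeq2 called 87 higher and 97 lower. Slopes of the members lay between -0.08 and 0.07 log2 units per RIN unit, for the 7 tested. Within a time of extraction only S100A8, S100A9, CSF3R and FPR1 passed the filter on low counts, with slopes of -0.28 to -0.15 in late RNA and 0.70 to 1.07 in early RNA. None of these was called, although S100A8, S100A9 and FPR1 had an unadjusted p of 0.0139, 0.00879 and 0.0196 in early RNA by edgeR. Depth also went with CSF3R in opposite ways in late and early RNA. CPM is divided by the exon total, so a negative correlation with that total is partly built in. The Spearman correlation of CSF3R with the log2 exon total was -0.66 in late RNA and 0.71 in early RNA, and -0.13 over all animals. S100A8 and S100A9 were both at -0.59 in late RNA, and at 0.17 and 0.33 in early RNA. In late RNA IL1R2 was at -0.41, S100A12 at -0.38, FPR1 at -0.15, FCN1 at -0.06 and CXCR2 at 0.20. CXCR2 was at 0.68 in early RNA. Depth relations within a time of extraction were not tested. Over all animals, 24 relations of a member with RIN, depth or mitochondrial share were tested. None passed adjustment (permutation test, smallest adjusted p = 0.419), and 2 had an unadjusted p under 0.05.

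One level did not follow the other exactly even for the calprotectin pair. The ratio of S100A9 to S100A8 counts was 0.499 to 2.70 in late RNA (median 1.05) and 1.06 to 2.93 in early RNA (median 1.69). It was above 1 in 17 of 17 animals with early RNA and in 11 of 21 with late RNA, and 11 animals with late RNA lay below every animal with early RNA. On orthologous exons the medians were 1.002 and 1.663. The ratio was taken up after its values were seen and was given no test.

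Across the 38 animals, 6 of the 8 genes varied together, while no pair with CXCR2 or FCN1 passed by rho. All 15 pairs among S100A8, S100A9, S100A12, CSF3R, FPR1 and IL1R2 were positively correlated past the threshold, with Spearman's rho of 0.63 to 0.96 (permutation test, adjusted p from 0.00375 to 0.0355 over all genes) and Pearson's r of 0.60 to 0.96, of which 14 passed. The pair that passed by rho but not by r was CSF3R and IL1R2 (rho 0.69, r 0.60, adjusted p of r = 0.0707, permutation test). Background shares of all genes called positive ranged from 0.0455% for CXCR2 to 3.4% for S100A8, with 3.38% for S100A9, 0.26% for S100A12, 0.845% for CSF3R, 1.21% for FPR1, 1.23% for FCN1 and 0.078% for IL1R2. Without the 2 animals farthest from the median, r of the 15 pairs was 0.50 to 0.95, and leaving out any single animal kept rho between 0.60 and 0.97.

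S100A8 and S100A9 were the closest pair, with rho 0.96 over all animals, 0.98 in late RNA and 0.95 in early RNA. S100A9 was the gene most like S100A8, S100A12 and IL1R2 among all genes and the gene ranked 2 for FPR1. Its rho was 0.88 with S100A12, 0.84 with IL1R2, 0.81 with FPR1 (0.68 in late RNA and 0.96 in early RNA) and 0.77 with CSF3R. CSF3R and S100A8 had rho 0.70, which was 0.89 in late RNA and 0.49 in early RNA. All 15 pairs kept a positive rho within late and within early RNA, 0.53 to 0.98 in late RNA and 0.49 to 0.96 in early RNA. Only 3 and 1 of them passed there. Animals were fewer, and a pair at the smallest permutation p passes only if at least 4 genes reach that p. In early RNA S100A8 and S100A9 did not pass at rho 0.95 (permutation adjusted p = 0.077). Failing to pass there is therefore not a sign of a low rho.

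Pairs with CXCR2 or FCN1 had rho of 0.09 to 0.52, and 0 of 13 passed by rho (permutation test, adjusted p from 0.0799 to 0.937), although 6 had an unadjusted p under 0.05. With TMM-scaled libraries 1 of the 13 passed, FPR1 with CXCR2 (rho 0.55, permutation adjusted p = 0.0389). By r, 2 of the 13 passed, CSF3R with FCN1 (r 0.53, adjusted p = 0.0444) and FPR1 with FCN1 (r 0.54, adjusted p = 0.0485), by permutation. The highest rho of CXCR2 was with FPR1 (0.52) and CSF3R (0.50), and the latter was 0.13 in late RNA and 0.82 in early RNA. IL1R2 and FCN1 were the least alike, with rho 0.09. CXCR2 was counted at only a few reads in many libraries, and whether this lowered its correlations was not tested. The pairs of the 6 genes were not tested against the pairs with CXCR2 or FCN1.

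**Figure D3:**
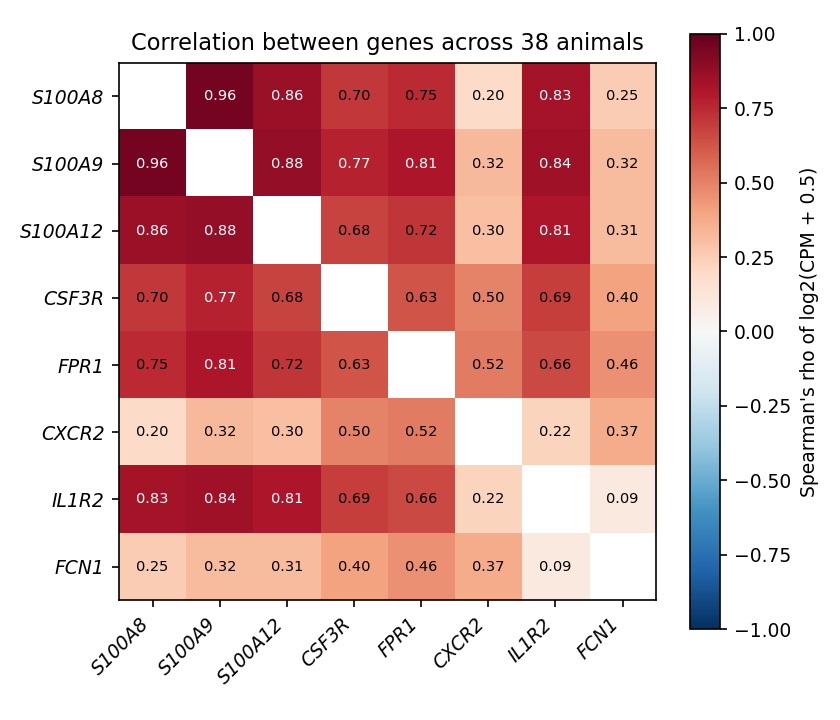
Spearman's rho of log2(CPM + 0.5) across 38 animals for each pair of the 8 genes. The block of 6 genes holds rho of 0.63 to 0.96, and the pairs with CXCR2 or FCN1 hold 0.09 to 0.52.

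Genes most like each member, outside the 8, were ranked by rho over the 38 animals. S100P, another S100 protein found in neutrophils, led for S100A8 (rho 0.86, 0.89 in late and 0.82 in early RNA), for S100A9 (0.85) and for IL1R2 (0.84). ADGRG3, an adhesion G protein-coupled receptor of granulocytes, was among the 3 most alike for S100A9 (0.84), S100A12 (0.83), CSF3R (0.83) and IL1R2 (0.78). TLR2, a receptor for bacterial lipoproteins, followed for S100A8 (0.84) and S100A9 (0.82), as did RETN (resistin) for S100A8 (0.84). BCL2A1, an anti-apoptotic protein of leukocytes, was the third for S100A12 (0.75), after S100P (0.80), and MMP9, the gelatinase of neutrophil granules, for IL1R2 (0.73). NFE2, a transcription factor of blood cells, was closest to CSF3R (rho 0.87, r 0.91), with NAIP, an inflammasome sensor, at 0.83. For FPR1 they included FOLR3, a secreted folate-binding protein (0.81, and 0.61 and 0.82 in late and early RNA), and ALOX5AP, which supports leukotriene synthesis (0.80). All passed, at the smallest p that 100000 permutations can give, 1e-05.

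CXCR2 and FCN1 had other neighbors. CSF1R, the receptor for the macrophage growth factor, led for CXCR2 with rho 0.70 (0.50 in late RNA and 0.58 in early RNA, permutation adjusted p = 0.0385), and LYZ (lysozyme) followed at 0.67, with 0.26 and 0.61 in late and early RNA. BCAS3 came next at 0.65. Without 537 and Little_R, or with values centred within extraction time, 0 genes passed for CXCR2 by permutation. FCN1 was most like NCKAP1L (0.76), an actin regulator of blood cells, PADI2 (0.76), a citrullinating enzyme, and ITGB2 (0.75), the shared beta chain of leukocyte integrins.

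Median rho over all 15392 genes was 0.10 for S100A8 and S100A9 and between -0.06 and 0.08 for the others. Of 20 neutrophil surface genes listed, 15 were tested. CXCR1 (median 0.10 CPM) and ADGRE3 (0.033 CPM) did not pass the filter on low counts, and FPR2, FCGR3B and CD177 had no symbol match. Of 15 neutrophil surface genes, 14 were positively correlated past the threshold with S100A9 (median rho 0.61), 11 with S100A8 (0.50), 10 with CSF3R (0.61) and 10 with FPR1 (0.59), but 2 with S100A12 (0.52), 2 with FCN1 (0.38) and 0 with CXCR2 (0.44) and IL1R2 (0.48). At an unadjusted permutation p under 0.05 the counts were 15 for S100A8, S100A9, S100A12 and CSF3R, 14 for FPR1 and IL1R2, 12 for FCN1 and 10 for CXCR2. TLR2, SIGLEC9 and CSF2RB led for S100A9 (rho 0.82, 0.77 and 0.71) and VNN2, TNFRSF10C and TREM1 for CSF3R (0.75, 0.73 and 0.68). The median rho of this list with S100A9 was 0.63 in late RNA and 0.54 in early RNA, and with CXCR2 it was 0.07 and 0.49. Library scaling altered these counts. With TMM-scaled libraries, which moved the median rho of all genes with S100A8 and S100A9 from 0.10 to about 0, 7 of the 15 passed with S100A9, 4 with S100A8, 7 with CSF3R, 9 with FPR1 and 3 with CXCR2, and without 537 and Little_R the counts were 11, 7, 9, 11 and 0.

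Granule genes were mostly too low to test. Of 17 listed, 8 passed the filter on low counts, and of these 3 passed with S100A8, S100A9, CSF3R and FPR1 each, 2 with S100A12 and IL1R2, and 0 with CXCR2 and FCN1. At an unadjusted permutation p under 0.05 the counts were 6 for S100A8, 5 for S100A9, CSF3R and IL1R2, 4 for FPR1 and S100A12, 3 for CXCR2 and 2 for FCN1. MMP9 (rho 0.61 to 0.73) and PADI4, which citrullinates histones (0.52 to 0.66), passed with 6 members, CHI3L1 with S100A8 and S100A9 and ARG1 with CSF3R and FPR1. MPO, a marker of promyelocytes, had rho of -0.05 to 0.13 with the 8 genes. In the phagocyte oxidase, NCF4 and NCF1 passed with S100A8 (0.71 and 0.63), S100A9 (0.72 and 0.66) and CSF3R (0.68 and 0.65), and the catalytic subunit CYBB with FPR1 (0.68), S100A9 (0.54) and S100A8 (0.51).

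FPR1 and S100A9 also went with tissue macrophage genes, of which 8 of 12 passed with each (median rho 0.60 and 0.53) and 5 with S100A8, against 0 with S100A12, CSF3R, CXCR2, IL1R2 and FCN1. At an unadjusted permutation p under 0.05 those 5 had 5, 10, 8, 2 and 6. The scavenger receptor CD163 (0.71) and the mannose receptor MRC1 (0.69) led for FPR1 and CD68 (0.66) for S100A9. The FPR1 median was 0.34 in late RNA and 0.62 in early RNA, and 1 of 12 passed with FPR1 once values were centred within extraction time, while 10 passed with S100A9. With TMM-scaled libraries 7 passed with FPR1 and 2 with S100A9. Of 12 classical monocyte genes, SERPINA1 passed with S100A8 (0.73), S100A9 (0.74), S100A12 (0.66), CSF3R (0.60) and FPR1 (0.62), and MNDA, LYZ and CSF1R with FPR1 and CXCR2. MS4A6A passed with S100A8 (0.60) and S100A9 (0.60), and MNDA with S100A9 (0.49).

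FCN1 was the member whose level went with T and NK cell genes. Of 11, 8 passed with FCN1 (median rho 0.60, 0.56 in late RNA and 0.69 in early RNA) and 0 with each of the other 7 members (medians 0.02 to 0.29), of which CSF3R had 3 at an unadjusted permutation p under 0.05, S100A8 and S100A9 2 each and FPR1 1. The difference between members was not tested. CD3D (0.68), CD3G (0.66) and CD2 (0.63) led, with the cytotoxic genes PRF1 and GZMB at 0.61. The count was 7 without 537 and Little_R, 7 with TMM-scaled libraries and 9 with values centred within extraction time. FCN1 also passed with 4 of 6 oxidase genes (CYBB 0.72, RAC2 0.66) and 3 of 12 classical monocyte genes, LYZ (0.74), MNDA (0.68) and CCR2 (0.62). No gene of the B and plasma cell, erythrocyte or platelet lists that was tested passed with any member by the permutation test on rho. At an unadjusted permutation p under 0.05, 3 of 4 platelet genes went with S100A8 and with S100A9, and 2 with CSF3R. S100A12, IL1R2 and FCN1 had 1 each, and FPR1 and CXCR2 had 0. Of 3 erythrocyte genes, 2 went with CSF3R and 1 with FCN1. The platelet median rho was 0.57 with S100A8 and 0.56 with S100A9 in late RNA, and 0.23 and 0.24 in early RNA. In the cardiomyocyte list, ACTC1 passed in the negative direction with S100A8 (-0.59) and MYBPC3 with S100A9 (-0.56). Of all genes, 0.832% passed in that direction with S100A8, 0.598% with S100A9, 0.0585% with CSF3R, 0.052% with FPR1, 0.039% with CXCR2, 0.013% with FCN1 and 0.0065% with S100A12 and with IL1R2.

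Of 15 ligands and partners, IL1RN, the antagonist that competes with interleukin-1 for its signaling receptor, passed with S100A8 (0.57), S100A9 (0.67), S100A12 (0.61), CSF3R (0.61) and FPR1 (0.62). IL1B, the ligand that IL1R2 captures, passed with S100A9 (0.54) and FCN1 (0.59), and CXCL8, the main ligand of CXCR2, with S100A9 (0.50). No ligand passed with CXCR2 or IL1R2. Among 6 myeloid transcription factors, SPI1 (PU.1) passed with S100A8 (0.65), S100A9 (0.74), CSF3R (0.69), FPR1 (0.74) and FCN1 (0.62), and CEBPD with S100A8 (0.67) and S100A9 (0.58).

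**Figure D4:**
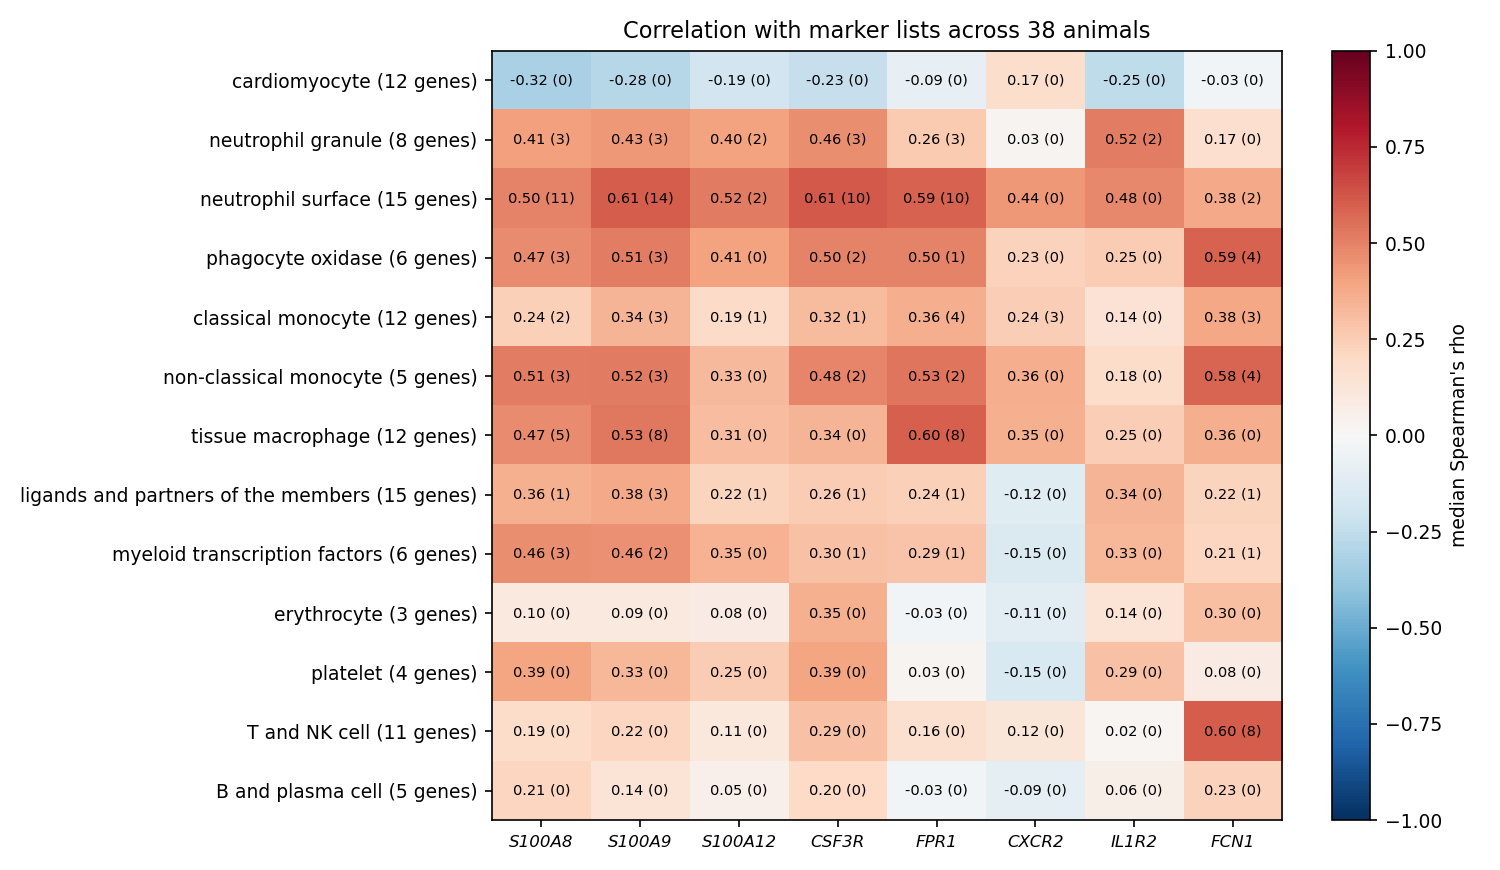
Median Spearman's rho of each member (columns) with the genes of 13 lists (rows) across 38 animals, with the number of genes positively correlated past the threshold in parentheses. S100A9 holds 14 of 15 neutrophil surface genes and FCN1 8 of 11 T and NK cell genes.

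Variability between animals was then set against that of genes of similar expression. Dispersion is the natural log of a gene's negative binomial overdispersion minus the trend on mean expression, so that 0 is typical, and it was computed for 13121 genes that reached 6 CPM in at least 1 animal. S100A8 (2.56, SE 0.25) ranked 99 and S100A9 (2.50, SE 0.26) ranked 111 of these genes, both past the 99th percentile of 2.42. CSF3R was at 1.39 (SE 0.38), above the 90th percentile of 1.21, and S100A12 (1.17, SE 0.35), IL1R2 (1.05, SE 0.44) and FPR1 (0.99, SE 0.25) were below that percentile. The median over all genes was -0.117. CXCR2 and FCN1 were below 6 CPM in every animal and were not included. The filter admitted IL1R2 through animal 338 alone and S100A12 through 4X0212, 338 and 529 alone. A high spread is therefore partly built into their values.

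Single hearts carried part of these values. Without 338 the dispersion of IL1R2 was 0.48, of S100A9 2.19 and of S100A8 2.32, and without 4x0519 that of CSF3R was 1.01. Within late RNA it was 2.40 for S100A8, 2.18 for S100A9, 1.33 for S100A12, 1.07 for CSF3R, 0.58 for IL1R2 and 0.42 for FPR1. early RNA gave 3.19 for S100A8, 3.10 for S100A9, 2.14 for CSF3R, 2.04 for IL1R2, 1.68 for S100A12 and 1.62 for FPR1. All 6 genes lay above 0 under each alternative that was run. For IL1R2 and S100A12 this carries the selection by the filter. The set of genes and the trend were kept when an animal was left out, although without 338 IL1R2 did not reach 6 CPM. The tissue macrophage list had a median dispersion of 1.83, with 12 of 12 genes above 0, T and NK cell genes 1.32, neutrophil surface genes 0.53 and granule genes 0.47.

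**Figure D5:**
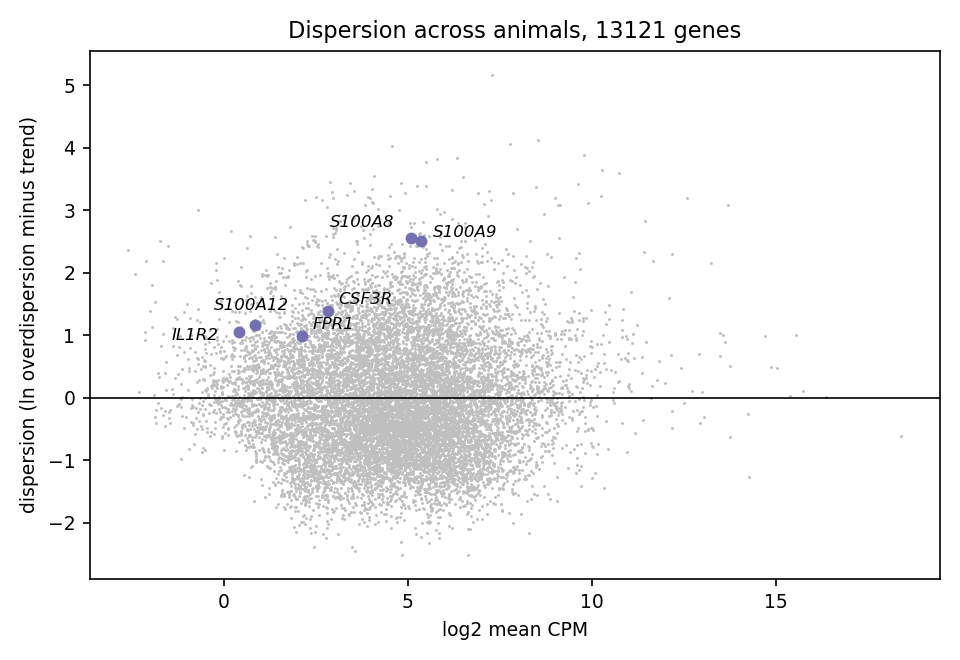
Dispersion (natural log of overdispersion minus the trend) against log2 mean CPM for 13121 genes (gray) and the 6 members that reached 6 CPM (purple). S100A8 (2.56) and S100A9 (2.50) lie near the upper edge, and S100A12, CSF3R, FPR1 and IL1R2 lie between 0.99 and 1.39.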

How the data were processed

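Raw counts per annotated gene and per orthologous exon set were deposited; the authors mapped single-end reads to Pan_tro_3.0 with STAR 2.6.1b, whose own gene counting on the Ensembl annotation gave the gene counts, and counted orthologous exons with featureCounts 1.6.3. The strand setting for gene counts is not given in the sources used here. The authors' score table holds log CPM standardized per gene and quantile normalized, for 37 animals and 4 of the 8 members. Gene counts were divided by orthologous exon totals, whose exon lengths were deposited too, to give CPM, and correlations used log2(CPM + 0.5). Another 52 per-sample columns were not used. Symbols were found for 18040 of 31373 identifiers.

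Differences were tested with edgeR 4.0.16 (quasi-likelihood, TMM, filterByExpr, sex as covariate) in R 4.3.3 and with DESeq2 1.42.0 as an alternative. Correlations were tested by 100000 two-sided permutations and Benjamini-Hochberg adjusted over 15392 genes per member, and 28 pairs of members were examined. For a pair, the larger of the 2 adjusted values was used. At the smallest p, 1e-05, at least 4 genes must reach it before 1 passes. Overdispersion was fitted by a purpose-written maximum likelihood search in a negative binomial model, and MASS 7.3.60.0.1 gave the same values for the members fitted. The trend was a LOESS fit with a span of 0.75, and SEs came from 1000 redraws of the animals with replacement. The threshold was 0.05 throughout. Tests were checked on simulated data.

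Animals are the replicates. Per the study some are first-degree relatives, and the tests treat them as independent. No 2 libraries agreed within sampling noise. Sex and virus notes were not compared as groups, since the labels do not give them. Named genes are the 8 members, the 3 genes most like each by rho and, from each of 14 lists, the 2 with the highest median level and up to 4 with the smallest p between extraction times among those that passed, and list genes past the threshold with a member were named after their values were seen. Some genes that this rule names are not reported here. FPR2, FCGR3B, CD177, FCGR3A, CEBPA, KRT6A and SPRR1B were listed but had no symbol match. The members and lists were chosen with earlier results of these data known.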

Additional observations from a re-analysis of the deposited data

How the results depend on the processing

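Where a value did not hold, the cause was not tested. The number of members past the threshold between late and early RNA was 1. It was 2 with no filter on low counts, 0 with RIN as a covariate, 0 among Yerkes animals only, and 0 to 1 when each animal was left out, the 0 without 4x0519. S100A8 turned from -0.30 to 0.032 without animals with a virus note, and ranged from -0.75 without 529 to 0.30 without 338 when each animal was left out. S100A12 turned from 0.09 to -0.035 with no sex term, -0.28 among Yerkes animals and -0.024 without animals with a virus note, and ranged from -0.66 without 529 to 0.56 without 338. S100A9 was -0.47 without 338, IL1R2 -0.50 without 338, CSF3R -0.15 without 4x0519 and FCN1 -1.12 without animals with a virus note. Within a time of extraction RIN slopes could be fitted for 4 members, against 7 over all animals. The lowest slope was 0.70 in early RNA only and, over all animals, -0.19 to 0.0039 when each animal was left out, and the highest was -0.15 in late RNA only and, over all animals, -0.0021 to 0.20 when each was left out. Over all genes, extraction time called 1713 higher and 720 lower, against 230 and 18 in Yerkes animals, 3144 and 583 with no filter, and 1675 and 355 without animals with a virus note. Of the pairs, 15 passed, against 3 in late RNA only and 1 in early RNA only. There animals were fewer, and the smallest permutation p limited which pairs could pass. With the authors' scores 3 of 6 pairs passed, against 6 in the CPM values. The rho of IL1R2 and FCN1 was -0.027 in late RNA only. The count was 16 with TMM scaling, the added pair being FPR1 and CXCR2, and 14 to 15 with centring within extraction time, without 537 and Little_R and without the 2 farthest animals. The alternatives on list counts, single left-out animals for pairs and exon-based ratios were chosen after seeing the data. No paired analysis was possible because the labels give a single group. In the shallowest library counting error at 1 CPM was 26.3% of the value, and it is larger below 1 CPM. CXCR2, IL1R2, S100A12 and FCN1 have medians below 1 CPM. At those levels counting error there exceeds 26.3%, so differences of 26.3% or less, and some larger ones, were not detectable there.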
